A study of Mus musculus with 112 samples.

Results

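The 10 genes described here, of 55413 in the mm10 annotation, serve the hormonal stress axis and neurotrophin signalling: Crh, Pomc, Crhr1, Crhr2, Oxtr, Nr3c1, Nr3c2, Fkbp5, Bdnf and Ntrk2. They were listed by name for their function and not for any measured value. All CpG positions from 2 kb upstream of each gene's start to its end were taken, which gave 3234 positions with a value in at least 1 of 13 tables, of 4388579 in all. Levels of DNA methylation (DNAme) came from reduced representation bisulfite sequencing (RRBS). In this assay restriction enzymes enrich CpG-rich fragments, and bisulfite conversion separates methylated from unmethylated cytosines. Each value is the percent of reads that were methylated at 1 cytosine in 1 library, and the 2 strands of a CpG are separate positions.

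Corticotropin-releasing hormone (Crh) drives pituitary release of ACTH, which is cut from the Pomc precursor, and the adrenal gland answers with glucocorticoids. Glucocorticoids bind the glucocorticoid receptor (Nr3c1) and, at lower levels, the mineralocorticoid receptor (Nr3c2), both of which are ligand-activated transcription factors that are abundant in brain. Fkbp5 is a co-chaperone that lowers the hormone affinity of the glucocorticoid receptor and is itself induced by it. Crhr1 and Crhr2 are the G protein-coupled receptors for Crh and the urocortins, Oxtr is the oxytocin receptor, and brain-derived neurotrophic factor (Bdnf) signals through the receptor tyrosine kinase TrkB, the product of Ntrk2. Methylation of such genes is often measured in studies of early-life and parental stress, and CpG-rich stretches at gene starts are usually unmethylated in most tissues.

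The study asked whether cigarette smoke (CS) alters DNAme in sperm of exposed male mice and in their sons, and whether loss of Nrf2, a transcription factor of the antioxidant response, has a similar effect. F0 sperm came from C57BL/6J wild type (WT) control mice (n = 10), CS-exposed (smoked) WT mice (n = 9), 3 groups of WT mice that were exposed and then kept without smoke, numbered recovery 1, 2 and 3 (n = 9, 10 and 10), unexposed Nrf2-/- control mice (n = 10) and smoked Nrf2-/- mice (n = 9). For F1 sperm, 6 libraries were from sons whose sires were WT controls and 7 from sons whose sires were smoked WT mice. F1 brain, which the study's methods give as prefrontal cortex, was taken from sons of WT sires, either control or smoked, and of Nrf2-/- sires, again either control or smoked (n = 8 in each of the 4 groups). Exposed and control males began the experiment as young adults of matched age. Controls were killed at the end of the exposure, so the recovery groups were older than the controls they are compared with, and age and recovery cannot be told apart. All sires were bred to unexposed CAST/EiJ females, so every F1 library holds a CAST/EiJ genome beside that of the sire, and sons of Nrf2-/- sires carry a maternal Nrf2 allele. The brain groups are named below after the sire. The deletion in Nrf2-/- mice is present in every cell, and prefrontal cortex is a mix of neurons and glia. A brain library titled as a son of a control WT sire had the strain label of the knockout and was kept with its title. Its column in the table is not known, but with each control WT brain library left out in turn no region passed in the brain comparisons and 14 to 16 of 24 passed against F1 sperm. The tables do not tie a library to its label within a group. The numbers in their headings run through 1 genotype after the other. What these numbers stand for is not stated, and genotype cannot be told apart from their order.

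Across the 112 libraries the number of positions with a value ranged from 510212 to 1855546, and the read depth behind each value is unknown because the tables hold no read counts. Promoters of germline genes, which are unmethylated in sperm and methylated in somatic tissue, had a median level of 1.14% in F0 sperm libraries and 77.9% in F1 brain libraries. The stretch 5 kb to 2 kb upstream of H19, methylated on the paternal allele and chosen after its values were seen, had a median of 95.6% in F0 sperm and 34.4% in F1 brain. The promoter windows of 3 genes of paternally methylated loci (H19, Rasgrf1 and Meg3), in contrast, had medians of 0.582 and 8.6%, and those of 6 maternally methylated imprinted promoters of 1.34 and 30.2%. No pair of libraries within a group shared more than 3.58% of equal values between 0 and 100, so none appeared to be a copy of another of its group. Pairs across groups were not compared.

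Neighbouring cytosines with a value in at least 4 libraries of every group compared were joined into regions of at least 3 cytosines, and each library got 1 level per region. The 10 genes held 60 of the 62831 regions of F0 sperm. They held 29 of 33449 for F1 sperm, and for F1 brain 80 of 80920. Crh, Crhr2 and Pomc had no region in F1 sperm. The 6 stretches printed here carry differences between sperm and brain that are described below, 5 of them away from gene starts. They are mm10 reference sequence (GRCm38.p6), plus strand, with each CpG in capitals.
Nr3c2, chr8:77185739-77185985, exon 4 of the first GENCODE transcript and the intron before it: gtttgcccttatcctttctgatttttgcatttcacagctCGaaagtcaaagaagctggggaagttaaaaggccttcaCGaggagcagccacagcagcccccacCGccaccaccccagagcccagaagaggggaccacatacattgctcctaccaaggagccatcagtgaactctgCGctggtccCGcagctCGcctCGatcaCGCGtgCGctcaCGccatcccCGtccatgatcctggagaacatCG
Nr3c2, chr8:76909847-76909996, coding exon 1 of the first GENCODE transcript: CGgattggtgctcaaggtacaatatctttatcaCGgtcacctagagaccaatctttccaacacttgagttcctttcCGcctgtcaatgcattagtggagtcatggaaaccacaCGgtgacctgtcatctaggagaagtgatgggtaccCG
Bdnf, chr2:109723560-109723685, coding part of the last exon: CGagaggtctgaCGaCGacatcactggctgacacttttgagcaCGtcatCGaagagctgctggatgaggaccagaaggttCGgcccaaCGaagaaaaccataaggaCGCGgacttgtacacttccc
Ntrk2, chr13:58835114-58835178, intron: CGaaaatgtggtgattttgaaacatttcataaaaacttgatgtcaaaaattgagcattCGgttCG
Ntrk2, chr13:58843674-58843755, intron: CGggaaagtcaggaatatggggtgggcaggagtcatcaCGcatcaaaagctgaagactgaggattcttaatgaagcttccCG
Pomc, chr12:3955096-3955186, intron, 190 bp past the gene start: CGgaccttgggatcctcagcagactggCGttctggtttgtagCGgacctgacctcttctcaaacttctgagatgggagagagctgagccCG
The first of these holds 13 CpGs in 247 bp, of which 210 bp are coding. The second holds 5 CpGs in 150 coding bp, and the Bdnf stretch 9 in 126 coding bp. The Pomc stretch has 4 CpGs and each Ntrk2 stretch 3.

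Sperm and brain of F1 sons differed widely at these genes, in both directions and by up to 87.1 points. An exon 4 stretch of the mineralocorticoid receptor gene Nr3c2 and a region in the last exon of Ntrk2 went from almost unmethylated in sperm to almost fully methylated in brain, while some intron regions of Ntrk2 and Fkbp5 had less DNAme in brain. In sons of control sires, 14 of the 24 regions that could be scored in both tissues passed the test (limma adjusted p below 0.05), which is 58.3% against a percent called of 56.3 over all 29113 regions. Of these, 5 were higher and 9 lower in brain, or 20.8 and 37.5% of the members, where the percent called was 30.3 and 26. In sons of smoked sires, 13 of 24 passed, or 54.2%, against 56 over all regions, with 4 higher and 9 lower, where the percent called was 28.5 and 27.5. Of 295 single cytosines, 138 passed in control sons and 130 in sons of smoked sires (46.8 and 44.1%), against a percent called of 42.5 and 40.4. The median difference of the 24 regions was -1.64 points in control sons, against 0.184 over all regions. The share of regions that differed was therefore near that of the genome.

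The exon 4 stretch of Nr3c2, 286420 bp past the gene start, was split into 2 regions here. In the first, control sperm libraries ranged from 2.5 to 8.27% with a median of 6.71% (n = 6), and control brain libraries from 89.5 to 98.1% with a median of 93.3% (n = 8). The difference was 87.1 ± 1.5 points (SE, limma adjusted p = 3.67e-26). In the second, starting at position 77185935, sperm ranged from 0.714 to 4.5% (n = 6) and brain from 84.4 to 85.7% (n = 8), a difference of 82.8 points (adjusted p = 5.68e-30). The tissues did not overlap in either region. Sons of smoked sires gave differences of 86.9 and 81 points in these 2 regions, from other libraries. Over the 69 cytosines of its window scoreable in both tissues, Nr3c2 went from 37.6% ± 4.29 (SD, n = 6) in control sperm to 62.6% ± 0.737 (SD, n = 8) in brain, 25 points higher (limma adjusted p = 1.28e-16). Over all 241 cytosines of this window scoreable in brain, control WT brain was at 31.1%.

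Ntrk2 moved both ways along its length. The region in its last exon, chr13:59133144-59133312 in the untranslated part, had levels of 0, 1.01, 4.44 and 4.63% in the 4 control sperm libraries with a value and of 73.6 to 90.8% in 8 brain libraries, with a median of 85.7%. The first Ntrk2 intron stretch printed above went the other way, from 74.8 to 91.5% in sperm (median 83.9%, n = 6) to 19.1 to 28.9% in brain (median 23.2%, n = 8), a fall by 60.3 points (adjusted p = 1.51e-20). The tissues did not overlap at either place. Of the 8 Ntrk2 regions in this comparison, 1 was higher and 5 were lower in brain. Over the 83 cytosines of its window scoreable in both tissues, Ntrk2 was at 65.3% ± 2.43 (SD, n = 5) in control sperm and 57.8% ± 2.69 (SD, n = 8) in brain, 7.46 points lower (limma adjusted p = 0.000717).

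The Fkbp5 intron region chr17:28467724-28467826 was at 93.1, 93.9, 94.7, 96.2 and 96.9% in control sperm and between 48.2 and 54.7% in brain (median 52%, n = 8), 43.1 points lower (adjusted p = 2.07e-14). Every brain library lay below every sperm library. For Nr3c1, coding region 39422617 on chromosome 18 was between 96.9 and 100% in 4 control sperm libraries and between 86 and 95.7% in brain, 8.31 points lower (adjusted p = 0.000155), and in sons of smoked sires 3.89 points lower with overlapping groups (adjusted p = 0.0293). Regions at the starts of Bdnf and Crhr1 also passed, at very low levels. Bdnf region 109676450 went from 0.883% ± 0.832 (SD, n = 6) to 3.3% ± 0.406 (SD, n = 8), and Crhr1 region 104133678 from 0.214% ± 0.427 (SD, n = 4) to 2.1% ± 0.771 (SD, n = 8). The Crhr1 difference did not pass in sons of smoked sires (0.579 points, adjusted p = 0.236). Whether the Nr3c1 and Crhr1 differences depend on the sire was not tested.

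**Figure D1:**
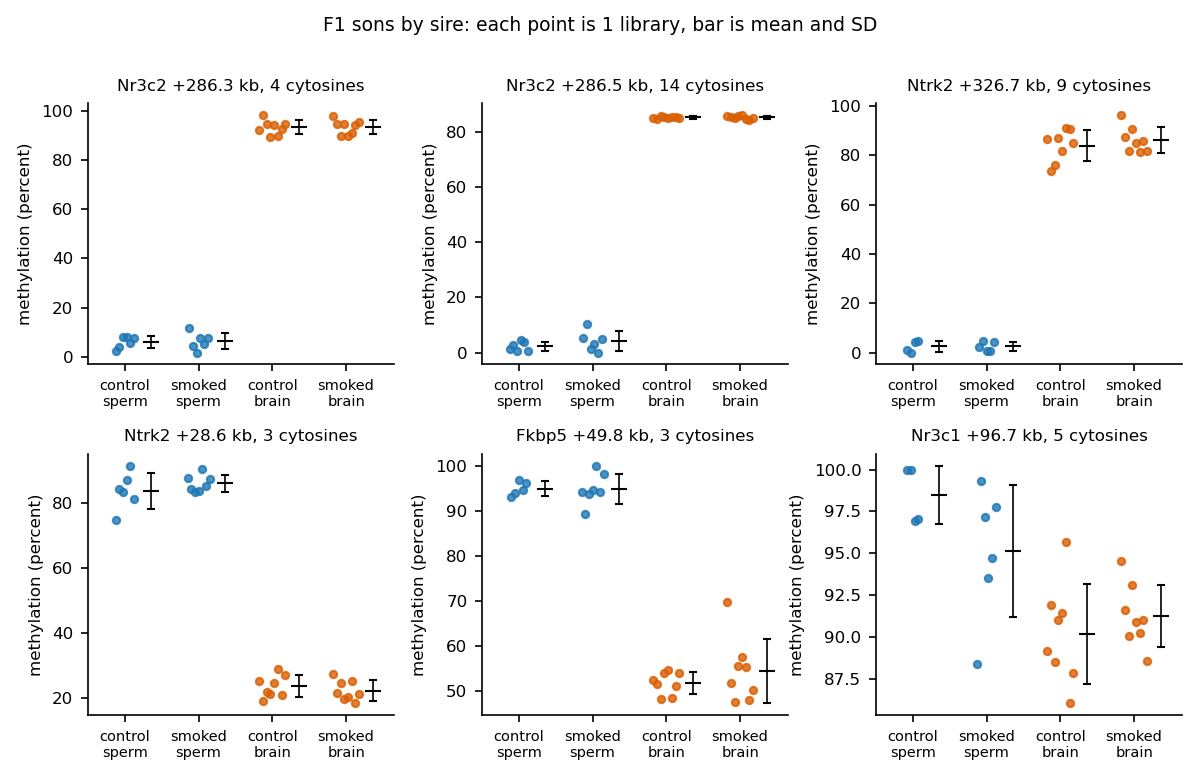
Methylation level in percent of 6 regions in F1 sperm (blue) and F1 brain (orange), by sire. Each point is 1 library and the bar beside it is the mean and SD. Panel titles give the distance from the gene start. Sperm and brain are apart in both sire groups in the first 5 panels, while the last, Nr3c1, overlaps in sons of smoked sires.

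Gene windows were taken over the cytosines scoreable in both F1 tissues. Among these windows, 8 of the 9 members that could be tested passed in control sons, 88.9% against a percent called of 64.3 over all genes, and 7 of 9 in sons of smoked sires, against 63.2. The Crh window, resting on 3 cytosines, rose from 1.53% ± 1.66 (SD, n = 6) to 30.5% ± 5.46 (SD, n = 8). The Nr3c1 window of 16 cytosines fell from 83.1% ± 8.34 (SD, n = 6) to 50.1% ± 2.2 (SD, n = 8), by 32.9 points (adjusted p = 4.81e-11). Crhr1 was the window that did not pass in control sons, at 7.33% ± 0.515 (SD, n = 4) and 6.53% ± 0.585 (SD, n = 8) (adjusted p = 0.0565). No window of Oxtr had enough scoreable cytosines.

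F0 sperm libraries share more scoreable positions than F1 sperm libraries, and control WT F0 sperm was therefore set beside control WT F1 brain, a comparison chosen after the data had been examined. Tissue, generation and the CAST/EiJ mothers change together in it and cannot be told apart. Of 71 regions, 37 passed, which is 52.1% against a percent called of 60.5 over all 71263 regions. There were 17 higher and 20 lower in brain, where the percent called was 26.4 and 34.1. Of the members, 32 of 71 regions (45.1%) were under 5% in both tissues, against 32.6% of all regions, and 11 (15.5%) were over 80% in both, against 25.2%. Member regions under 10% in sperm and over 80% in brain numbered 3 (4.23%, against 3.28% of all regions). These were the Nr3c2 coding stretch, the coding part of Bdnf and the last exon of Ntrk2. Another 3 were over 80% in sperm and under 30% in brain (4.23%, against 1.51%), and they lay in Nr3c1 and in 2 introns of Ntrk2.

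The hormone genes Crh and Pomc, which encode the peptides of the axis, were low in their scored regions in F0 sperm. The Pomc window of F1 sons, resting on 5 cytosines, was at 40% ± 0.344 (SD, n = 4) in control sperm and 36.9% ± 1.34 (SD, n = 8) in brain. Over all 40 cytosines of this window scoreable in brain, control WT brain was at 10.5%. The Crh coding region chr3:19693977-19694109 was at 0.296% ± 0.473 (SD, n = 8) in sperm and 0.587% ± 0.511 (SD, n = 8) in brain and did not pass (adjusted p = 0.464). The Pomc stretch printed above ranged from 0 to 7.25% in sperm (median 1.25%, n = 10) and from 15 to 33.6% in brain (median 28.5%, n = 8). It was 25.3 ± 1.9 points higher (SE, adjusted p = 9.86e-10), with no overlap. The Pomc coding region chr12:3959876-3960329, by contrast, was low in both, at 0.92% ± 1.5 (SD, n = 10) and 2.52% ± 1.6 (SD, n = 8).

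Among the receptors of the axis, Crhr1 had 7 regions, of which 2 rose, both by few points, and none fell. Its start region chr11:104133215-104134007 rose from 0.457% ± 0.33 (SD, n = 10) to 1.41% ± 0.43 (SD, n = 8) (adjusted p = 0.00216). Neither of the 2 Crhr2 regions passed. Crhr2 region chr6:55091257-55091349, in the last exon, read 45.7, 81.5, 86.9 and 93.4% in 4 sperm libraries and 74.6 to 89.6% in 6 brain libraries. The Oxtr coding region chr6:112489053-112489393 ranged from 0 to 1.41% in sperm (median 0.23%, n = 10) and from 4.83 to 10% in brain (median 7.5%, n = 8), 6.94 points higher and without overlap (adjusted p = 3.85e-08).

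The 2 corticosteroid receptor genes each had regions that differed. In Nr3c1, a coding region in exon 2 of the 9 of the first GENCODE transcript at chr18:39486429-39486576, 730 bp past an internal transcript start, ranged from 76.9 to 100% in sperm (median 92.5%, n = 6) and from 11.5 to 26.2% in brain (median 15.1%, n = 8). This was 76.1 ± 3.4 points lower (SE, adjusted p = 4.1e-11). Its start regions had means under 2% in both tissues. Of 5 Nr3c1 regions, 3 fell and none rose. In Nr3c2, 2 of 14 regions rose and 2 fell, and the 10 that did not pass included all 9 within its start cluster. The first Nr3c2 coding stretch, chr8:76909847-76909996, was of intermediate level in sperm, from 8.75 to 52.4% (median 23.1%, n = 8), and high in brain, from 84.5 to 97.5% (median 94%, n = 8). The exon 4 stretch ranged from 0 to 4.34% in sperm (median 2.23%, n = 10) and from 87.1 to 89.2% in brain (median 88.2%, n = 8). Its 21 single cytosines lay between 0 and 14.5% in sperm (median 1.67%) and between 10.9 and 98.8% in brain (median 96.4%). The low values in brain were at 2 cytosines, 77185936 at 15.6% and 77185984 at 10.9%, while the opposite-strand cytosines of the same CpGs, 77185935 and 77185985, were at 96.6 and 96.5%. Both low cytosines count in the region level, and whether their values reflect methylation or library preparation was not tested.

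Fkbp5 had 2 regions higher and 4 lower of 11. The intron region chr17:28510679-28510764 was between 0 and 4.81% in sperm (median 0%, n = 9) and between 11.1 and 20.3% in brain (median 17.6%, n = 8), 15.4 points higher (adjusted p = 1.26e-08). The intron region 28467724 fell by 34.8 points (adjusted p = 1.44e-09). The largest CpG cluster of the gene, chr17:28485399-28485902 with 82 cytosines next to a transcript start, was at 0.483% ± 0.58 (SD, n = 9) and 0.425% ± 0.11 (SD, n = 8).

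Bdnf contrasted a low 5′ end with a methylated coding exon. Its 7 regions at transcript starts were between 0.354 and 1.06% on average in sperm and between 0.77 and 2.02% in brain, and 2 of them, 109676029 and 109676278, rose (adjusted p = 0.0421 and 0.00584). The coding region, the first 51 bp of the stretch printed above, ranged from 0 to 5.05% in sperm (median 1.91%, n = 10) and from 73.3 to 90.5% in brain (median 82.9%, n = 8). It was 80.8 ± 1.9 points higher (SE, adjusted p = 1.6e-17). Within the printed stretch, the 9 cytosines with enough values in control WT brain lay between 1.52 and 97.6% (median 91.3%). This exon carries the coding sequence of Bdnf.

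Between F0 sperm and F1 brain, Ntrk2 had the most differences of the 10 genes, at 17 of 19 regions. Of these, 6 were higher and 11 lower in brain. Both regions at its starts had means under 2% in both tissues and did not pass. The falls began 3621 bp past the gene start. Intron region chr13:58812604-58812746 was at 88.8% ± 5.2 (SD, n = 7) in sperm and 13.8% ± 4.48 (SD, n = 8) in brain, and region 58964683 at 98% ± 1.99 (SD, n = 9) and 43.5% ± 3.31 (SD, n = 8). The second intron stretch printed above went against these, from between 0.148 and 2.89% in sperm (median 1.39%, n = 10) to between 40 and 68.3% in brain (median 52.8%, n = 8). The 2 regions of the last exon rose by 82.9 and 66.4 points, the second from 21.2% ± 5.25 (SD, n = 9) to 87.6% ± 3.94 (SD, n = 8). Ntrk2 also differed between control F0 and F1 sperm, where 2 of 8 regions rose, 4 fell and 2 did not pass. Region 58980102, counted above as higher, averaged 47.7% in brain and 6.07% for F0 sperm. Control F1 sperm averaged 63.6% there, not passing against brain (limma adjusted p = 0.093). Regions 58852410 and 59003565, counted as lower, were 22.5 and 26.7 points lower in F1 than F0 sperm. Control F1 sperm averaged 75 and 69.5% there, and control WT F1 brain 47.3 and 42.2%. How much of the differences between F0 sperm and brain goes with tissue was not tested.

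**Figure D2:**
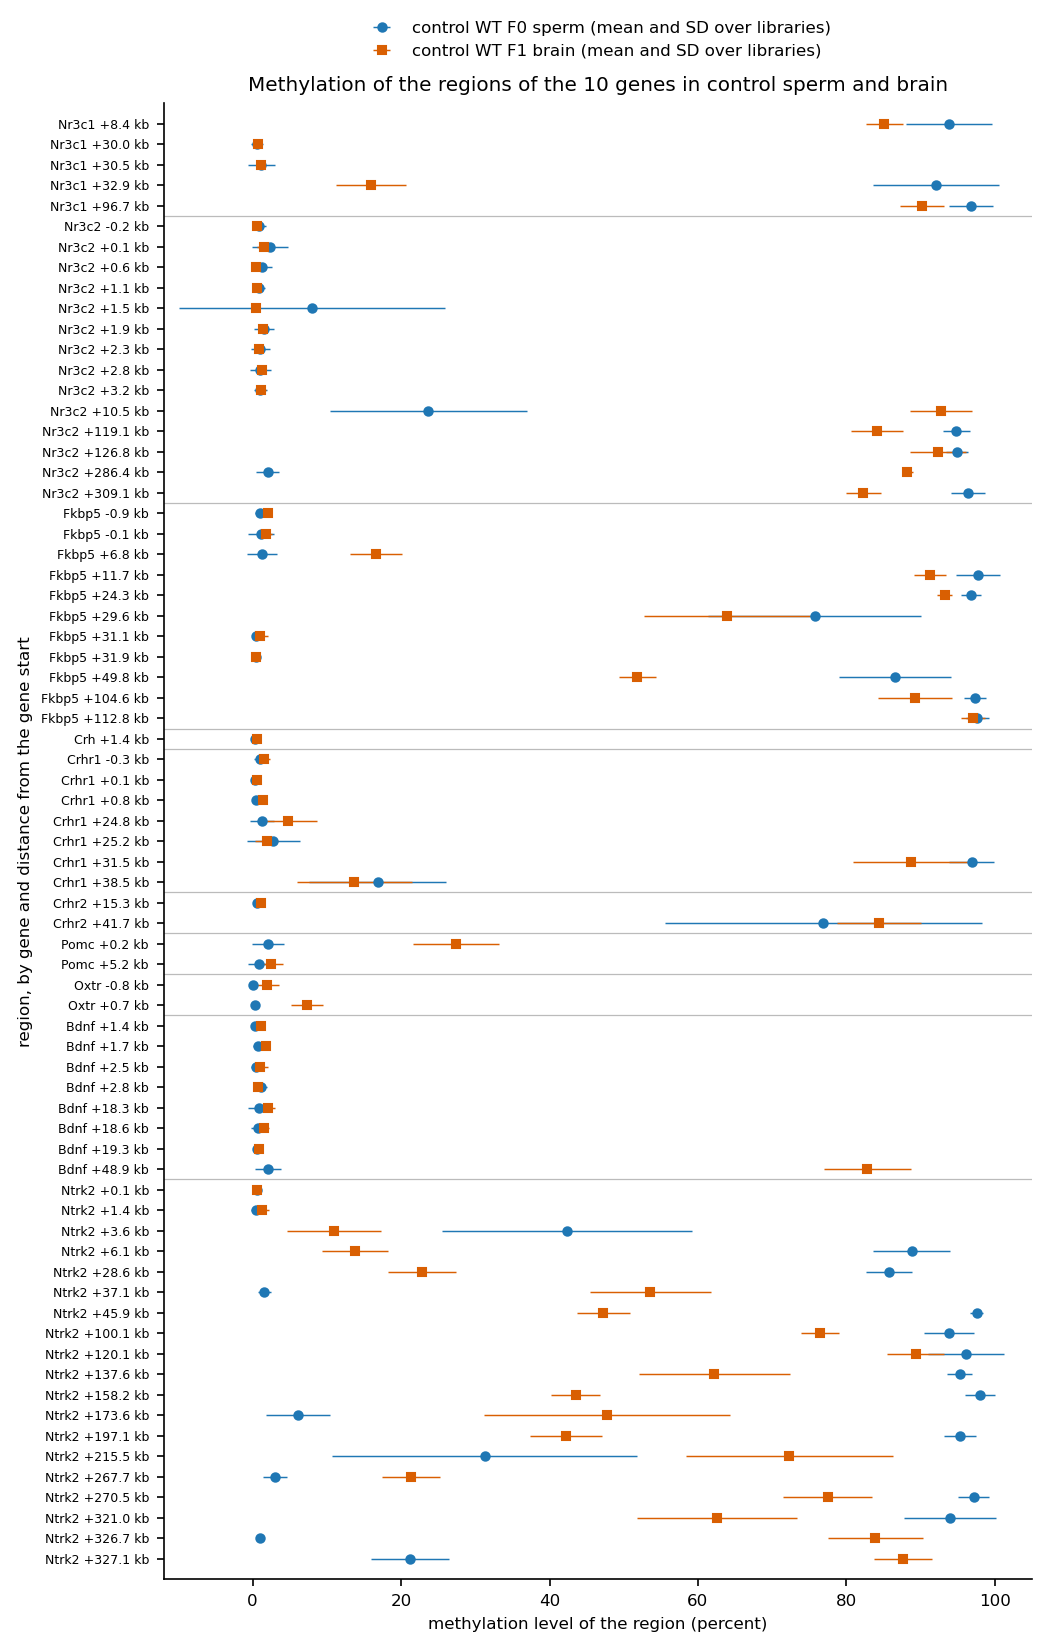
Methylation level in percent of each of the 71 regions in control WT F0 sperm (blue circles) and control WT F1 brain (orange squares), as mean and SD over libraries, in rows by gene and distance from the gene start in kb. Regions at gene starts lie together at the left edge in both tissues, and the widest gaps are in Nr3c2, Nr3c1, the last region of Bdnf and along Ntrk2.

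The low state of gene starts held within each tissue as well. Regions from 2 kb upstream to 500 bp downstream of a transcript start had a mean under 5% in every group of F0 sperm in 25 of 26 cases, against 9 of 34 away from starts. The counts for F1 sperm were 8 of 10 and 4 of 19, and for F1 brain 27 of 31 and 4 of 49. Over all regions, near and away from a start of any gene, the shares were 86.2 and 22.2% in F0 sperm, 81.4 and 16.3% for F1 sperm and 72.8 and 7.83% for F1 brain, so low levels at starts are not particular to these genes. The exception among the 26 member regions in F0 sperm was Fkbp5 region chr17:28487859-28487957, upstream of an internal start and at 75.7% ± 14 (SD, n = 9) in control sperm. In brain, that region, Pomc region 3955096 and Crhr2 region 55118298 were over 20%. CpG-rich starts are also what RRBS samples best.

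F1 sperm was set beside F0 sperm, likewise after the data had been examined. Generation and maternal strain change together in this comparison. Of 28 regions in control groups, 8 passed, or 28.6% against a percent called of 31.9 over all regions, and all 8 lay in Ntrk2 (6) and Fkbp5 (2). There were 2 higher and 6 lower in F1, where the percent called was 7.17 and 24.7. Ntrk2 region chr13:58980102-58980199 was between 1.29 and 14.3% in F0 sperm (median 4.89%, n = 10) and at 51, 62.7, 67.1 and 73.6% in F1 sperm, 57.5 points higher (adjusted p = 2.75e-08). Ntrk2 region 58822062 was between 62.2 and 99.3% in F0 sperm (median 98.8%, n = 8) and at 16.7, 21, 21.8, 30.5 and 37.6% in F1 sperm, 65.4 points lower (adjusted p = 7.61e-06). Neither pair of groups overlapped. None of the 5 Bdnf and 5 Nr3c2 regions passed. The coding stretch of Bdnf was at 3.32% ± 3.51 (SD, n = 10) in F0 and 1.53% ± 0.675 (SD, n = 6) in F1 sperm.

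CS exposure, recovery and Nrf2 genotype changed none of these regions by the adjusted test. In each of the 7 comparisons of F0 sperm, 0 of 60 regions passed with limma. The percent called over all regions was 0.00159 for smoked against control WT, 0, 0.00637 and 0.043 for recovery 1, 2 and 3, 0.409 for control Nrf2-/- and 0.358 for smoked Nrf2-/- against control WT, and 0.00637 for smoked against control Nrf2-/-. At an unadjusted p below 0.05 the member counts were 2, 1, 4, 2, 1, 5 and 2 of 60 in that order, where the percent called was 3.92, 5.28, 4.17, 6.3, 7.81, 7.88 and 5.76. None of the 10 gene windows passed, where the percent called was 0, 0, 0, 0.0113, 0.365, 0.346 and 0, and 2, 0, 2, 0, 2, 2 and 1 had an unadjusted p below 0.05, where it was 4.55, 4.77, 3.98, 5.98, 8.3, 7.32 and 6.12. None of 967 single cytosines passed, where the percent called was 0.000586, 0.000293, 0.000586, 0.00293, 0.0923, 0.0805 and 0.00176. Unadjusted, 63, 45, 46, 44, 46, 62 and 52 cytosines had a p below 0.05, where it was 4.73, 5.54, 4.68, 5.83, 6.72, 6.46 and 5.66. The median difference of the 60 regions, smoked minus control WT sperm, was -0.262 points, against -0.149 over all regions.

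A region was called a differentially methylated region (DMR) by size where at least 1 in 3 of its cytosines and its mean changed by more than 5 points, with no test against the spread. By that rule 2, 1, 2, 4, 1, 2 and 1 of the 60 regions were DMRs in these comparisons, where the percent called was 2.61, 3.4, 2.53, 4.1, 5.1, 4.93 and 3.73. Between F1 brain and F1 sperm the rule called 14 of 24 regions in control sons and 11 of 24 in sons of smoked sires, where the percent called was 52.9 and 51.2. For smoked against control WT these were Fkbp5 region 28487859, 5.7 points higher, and Ntrk2 region 58822062, 6.24 points lower, both within the spread of their libraries (unadjusted p = 0.478 and 0.291, limma). The region with the smallest p in that comparison was Ntrk2 region 58852410. It ranged from 96.5 to 99.1% in control (median 97.5%, n = 10) and from 93.3 to 98.9% in smoked WT sperm (median 96.2%, n = 9). The difference was -1.48 ± 0.68 points (SE, limma p = 0.0318, adjusted p = 1), and the groups overlapped.

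After smoke was withdrawn, the smallest p values included 2 regions at levels near 0. Nr3c2 region 76901694, in the start cluster, was between 0 and 3.57% in control sperm (median 0.595%, n = 10), between 0 and 1.14% in recovery 1 (median 0%, n = 8) and at 0% in all 9 recovery 3 libraries. The differences were -0.9 points (limma p = 0.0287, adjusted p = 0.936) and -1.04 points (p = 0.0095, adjusted p = 0.703). Bdnf region 109676278 in recovery 2 was between 0.815 and 4.75% (median 1.57%, n = 10) and in control between 0.159 and 2.03% (median 0.638%, n = 10), 1.12 points higher (p = 0.0191, adjusted p = 1). Groups overlapped in each case.

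**Figure D3:**
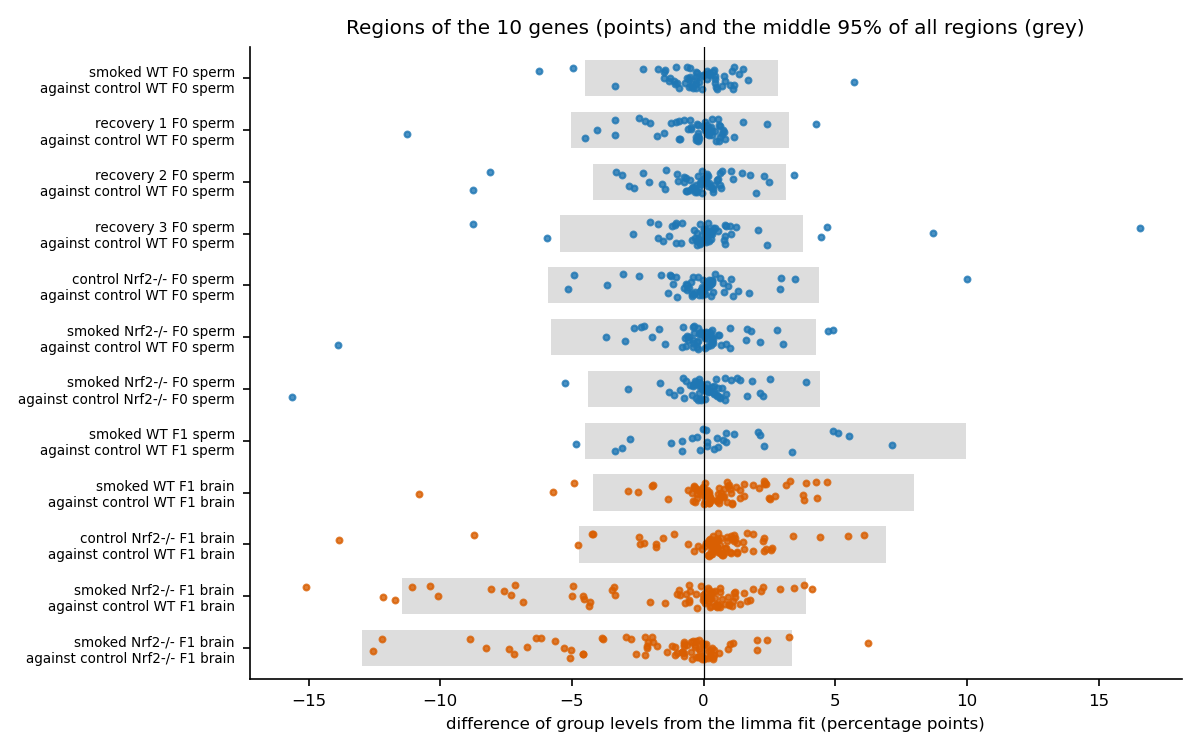
Difference of group levels in percentage points from the limma fit for each region of the 10 genes (points, blue for sperm and orange for brain) in the 12 comparisons within a tissue, with a grey bar from the 2.5 to the 97.5 percentile of all regions. Most points lie within the grey bar, and no point passed the adjusted test.

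Both Nr3c2 coding stretches that separate sperm from brain had their most marked differences within F0 sperm in smoked Nrf2-/- mice. Levels here were adjusted over the F0 sperm groups and so differ slightly from those given beside brain. Stretch 77185739 ranged from 1.31 to 4.34% in control WT sperm (median 2.87%, n = 10), from 2.47 to 6.03% in control Nrf2-/- (median 3.33%, n = 10) and from 2.29 to 12.5% in smoked Nrf2-/- sperm (median 4.41%, n = 9). The last group was 3.01 ± 0.8 points higher than control WT (SE, limma p = 0.000373, adjusted p = 0.0797), higher in 7 of 9 libraries, and overlapped with it. The test passed when smoked Nrf2-/- library 2, 8 or 9 was left out, with differences of 3.35, 3.4 and 3.46 points (adjusted p = 0.0386, 0.0293 and 0.0228), and did not pass without any 1 of the other 16 libraries of the 2 groups, with adjusted p up to 0.299. Library numbers are column order.

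Stretch 76909847 moved the other way. It was between 8.85 and 54.4% in control WT (median 26.4%, n = 10), between 12.7 and 47.6% in control Nrf2-/- (median 29.7%, n = 9) and between 0 and 28.6% in smoked Nrf2-/- sperm (median 15.1%, n = 8). Smoked Nrf2-/- sperm was 13.9 ± 4.8 points below control WT (SE, p = 0.00537, adjusted p = 0.319) and 15.6 ± 4.9 points below control Nrf2-/- sperm (p = 0.00238, adjusted p = 0.613). It was a DMR by size in both comparisons, which share the smoked group. In smoked WT sperm the stretch was between 11.8 and 31.8% (median 26.4%, n = 8). The difference of the smoke change between Nrf2-/- and WT passed at none of the 60 regions, where the percent called was 0, and 1 region had an unadjusted p below 0.05, where it was 4.21. That region was Ntrk2 region 59133144 (-1.94 points, p = 0.0352, adjusted p = 1). In control Nrf2-/- sperm the smallest p was at Ntrk2 intron region 58835114, 2.96 points above control WT (p = 0.0371, adjusted p = 0.597).

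**Figure D4:**
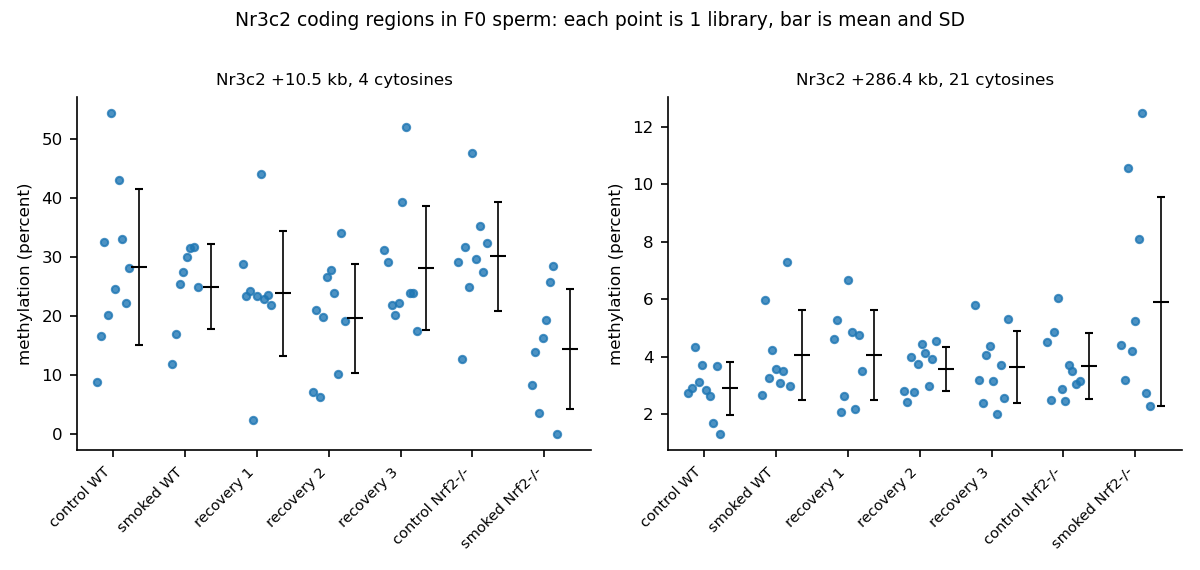
Methylation level in percent of the 2 Nr3c2 coding stretches in the 7 groups of F0 sperm. Each point is 1 library and the bar beside it is the mean and SD. Smoked Nrf2-/- libraries reach lowest, to 0%, in the first stretch and highest, to 12.5%, in the second, and overlap with the other groups in both.

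In F1 sperm, 0 of 29 regions passed between sons of smoked and control WT sires, where the percent called was 0, and 0 had an unadjusted p below 0.05, where it was 5.38. None of the 10 gene windows (percent called 0) and of 375 single cytosines (0.00135) passed, and 1 window and 11 cytosines had an unadjusted p below 0.05, where the percent called was 6.12 and 4.11. By size 3 regions were DMRs (10.3%, against a percent called of 13.1), namely Fkbp5 region 28488107 and Ntrk2 regions 58810174 and 58906616, higher by 7.17, 5.53 and 5.1 points. Bdnf region 109677458, with the smallest p, was at 0% in all 7 libraries of smoked sires and between 0 and 8.15% in 5 control libraries, a difference of -2.8 points (limma p = 0.0558, adjusted p = 0.903).

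In F1 brain, 0 of 80 regions passed in each of 4 comparisons, where the percent called was 0.00124 for smoked against control WT sires, 0.0124 for control Nrf2-/- and 0.0198 for smoked Nrf2-/- against control WT, and 0.00124 for smoked against control Nrf2-/-. By size 2, 2, 11 and 12 regions were DMRs, where the percent called was 8.33, 7.53, 13.6 and 16. All 11 in sons of smoked Nrf2-/- sires against control WT were lower, as were 11 of the 12 against control Nrf2-/-, where the percent called lower was 12.3 and 15.1. With the unadjusted test, 5, 6, 12 and 4 regions had p below 0.05, where the percent called was 4.16, 7.76, 10.4 and 9.64. No gene window passed, where the percent called was 0, 0.00712, 0.00712 and 0.0427, and 1, 1, 1 and 4 of 10 had an unadjusted p below 0.05, where it was 5.38, 10.4, 11.1 and 15.1. No single cytosine of the 1279 passed, where it was 0, 0.00216, 0.00331 and 0.000935, and 42, 58, 68 and 55 had an unadjusted p below 0.05, where it was 3.8, 5.28, 6.02 and 5.73.

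Of the 11 lower regions against control WT, 5 lay in Ntrk2, 2 in Crhr1 and 1 each in Fkbp5, Crhr2, Nr3c2 and Bdnf. Against control Nrf2-/- they were 5 in Ntrk2, 2 in Crhr1 and 1 each in Fkbp5, Crhr2, Nr3c1 and Nr3c2, and the 1 higher region was in Bdnf. Those with an unadjusted p below 0.05 are given here. Fkbp5 region 28487859 was between 52.1 and 87.9% in sons of control WT sires (median 61.9%), between 51.9 and 71.1% in sons of control Nrf2-/- sires (median 66.7%) and between 39.8 and 70% in sons of smoked Nrf2-/- sires (median 52.9%, n = 8 each). It was 11.7 points below the first (limma p = 0.0157, adjusted p = 0.434) and 12.6 below the second (p = 0.0101, adjusted p = 0.372). Crhr1 intron region chr11:104151132-104151204 was between 6.06 and 38.9% in sons of smoked WT sires (median 28.1%) and between 27.6 and 62.5% in control WT sons (median 33.5%, n = 8 each). The difference was -10.8 ± 4.8 points (SE, limma p = 0.0305, adjusted p = 1), and in sons of smoked Nrf2-/- sires it was -12.2 points (p = 0.016, adjusted p = 0.436). Both comparisons share the control WT group, in which 1 library was at 62.5% and the next at 36.6%. Crhr1 region 104168616 was lower by 10.1 points in sons of smoked Nrf2-/- sires (p = 0.0307), Crhr2 region 55118298 by 7.3 (p = 0.0448) and Ntrk2 region 59077067 by 10.4 (p = 0.01), with adjusted p of 0.454, 0.473 and 0.414. Ntrk2 region 58964683 was lower by 8.88 points than in sons of control Nrf2-/- sires (p = 0.0279, adjusted p = 0.454). All groups overlapped.

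Smoked Nrf2-/- brain libraries were also lower at many regions outside these genes. Over all regions, the 2.5 percentile of the difference from control WT was -11.5 points, against -4.22 for sons of smoked WT sires, and the members ranged from -15.1 to 4.13 points. Its part in the counts of the 10 genes was not tested. In Bdnf, region chr2:109722758-109722850 was between 22.6 and 58% in control WT sons (median 36.2%, n = 8) and between 9.87 and 29.4% in sons of control Nrf2-/- sires (median 24.5%, n = 7). The difference was -13.8 ± 5 points (SE, limma p = 0.00981, adjusted p = 0.64). Bdnf start region 109676278 was between 1.56 and 2.26% in control sons (median 1.74%, n = 8) and between 1.43 and 4.65% in sons of smoked WT sires (median 3.44%, n = 8). It was 1.38 points higher in the latter (limma p = 0.0126, adjusted p = 1). Nr3c2 start region 76902580 was 1.38 points higher in sons of smoked Nrf2-/- than of control WT sires (p = 0.00787, adjusted p = 0.407). The difference of the smoke change between sire genotypes passed at no region, where the percent called was 0, and 6 of 80 had an unadjusted p below 0.05, where it was 9.43. The smallest p was at Fkbp5 intron region 28467724 (-8.82 points, limma p = 0.013, adjusted p = 0.414).

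**Figure D5:**
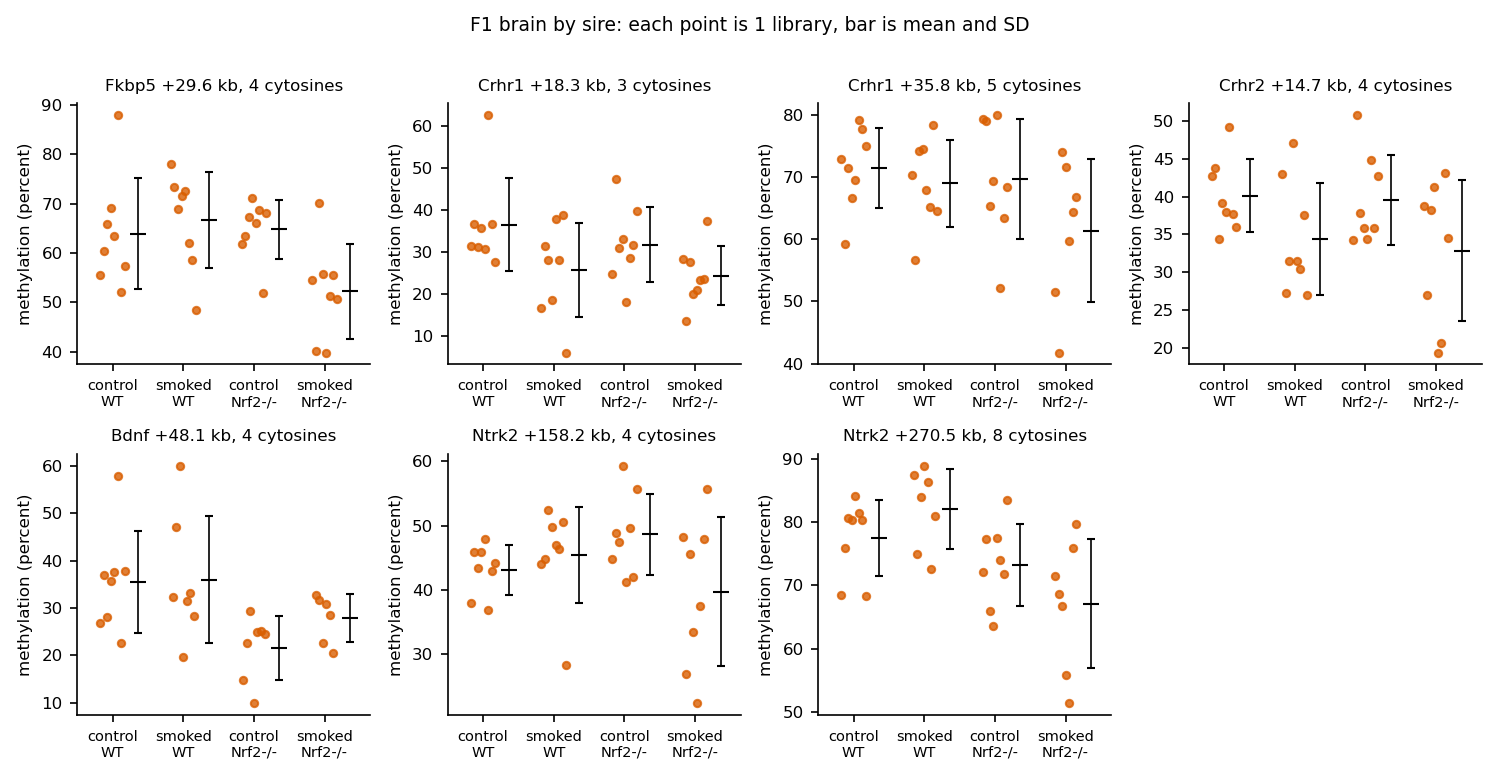
Methylation level in percent of 7 regions in F1 brain by sire. Each point is 1 library and the bar beside it is the mean and SD. The control WT groups of Fkbp5, the first Crhr1 panel and Bdnf each hold 1 library well above the other 7, at 87.9, 62.5 and 58%, and all groups overlap.

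Other genes of the same pathways were counted from a list of 37, among them the urocortins, the vasopressin and oxytocin genes, steroid enzymes, receptor chaperones and the remaining neurotrophins and their receptors. In none of the 12 comparisons within a tissue did a gene window or region of this list pass. Between F1 brain and F1 sperm of control sons, 11 of 31 windows that could be tested were higher and 10 lower in brain, and in sons of smoked sires 13 were higher and 11 lower, where the percent called in both directions over all genes was 64.3 and 63.2. The largest difference was in Ucn3, the gene of urocortin 3, a ligand of Crhr2, at 89.2 points. Ntrk3, which encodes a receptor related to that of Ntrk2, was lower by 11.5 points.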

How the data were processed

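DNA methylation was measured by RRBS (MspI and TaqI digests) in 112 libraries of mouse sperm and brain. Per the submitters' processing notes and the study's methods the authors aligned reads with Bismark to mm10 and kept CpGs above a read minimum; versions are not given in the sources used here. The 13 deposited tables, 1 per group, hold percent methylation per cytosine and library, without read counts, so depth is unknown and its part in the spread could not be weighed. Precision is given by the spread between libraries.

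From these, cytosines with a value in at least 4 libraries of every group compared were joined up to 100 bp apart into regions of at least 3 cytosines and over 50 bp. A library's region level was adjusted for which cytosines had a value, with at least 50% of them needed, and libraries below that were dropped. The adjustment used each cytosine's mean over the groups of a set and kept levels within 0 and 100. The level of a library at a region can therefore differ between sets of groups. Levels were fitted with limma 3.58.1 in R 4.3.3 over all groups of a set, with 2-sided moderated tests and Benjamini-Hochberg adjustment over all regions, gene windows (2 kb upstream to gene end) or cytosines. A call is an adjusted p below 0.05. The labels number the libraries of a group but name no animal, sire or litter. F1 sperm and F1 brain may come from the same mice, and sons of a group may share a sire or litter. All libraries were fitted as independent, and p-values measure the spread between libraries, not between sires. The fit was tested on simulated data. Columns carry no label replicate number. Named regions are those with the smallest p of a comparison, DMRs by size with unadjusted p below 0.05, the start region with most cytosines and the widest tissue difference per gene; all other regions named in the comparisons between tissues or generations were chosen after their values were seen. The genes, lists and tests were chosen with earlier results of these data known. Annotation was GENCODE vM21.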

Additional observations from a re-analysis of the deposited data

Results flagged for a closer look

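In groups of 4 to 10 libraries, 13 of 88 groups held a library whose distance to its nearest neighbour was beyond Dixon's 95% value for the group's range. These groups share libraries and come from regions named for their values, so the usual rate of 1 in 20 is no reference for them. The library of conflicting strain label, whose column is not known, belongs to control WT F1 brain. That group gave 6 of the 13 values, and its share of the 88 groups was not counted. There, the highest library was at 62.5% at Crhr1 region 104151132 (next 36.6%), at 58% at Bdnf region 109722758 (next 37.8%), at 87.9% at Fkbp5 region 28487859 (next 69%), at 26.2% at Nr3c1 region 39486429 (next 17.6%) and at 4.19% at Bdnf region 109676450 (next 3.46%). The lowest was at 15% at Pomc region 3955096 (next 25.3%). In sons of smoked WT sires, 1 brain library was at 69.7% at Fkbp5 region 28467724 (next 57.6%).

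In control WT F0 sperm, 1 library was lowest at Nr3c1 region 39422617, at 88.7% (next 96.6%). Libraries of the same group were highest at Bdnf region 109677458, at 3.88%, at Oxtr region 112489053, at 1.41%, and at Oxtr region 112489162, at 0.855%. A single library was above 0 at Nr3c2 region 76901694 in recovery 1 (1.14%) and at Crhr1 region 104133678 in control WT F1 sperm (0.855%). Whether these libraries are technical or biological outliers was not tested.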

How the results depend on the processing

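No paired analysis was possible because the tables' columns carry no replicate number of the labels. For the regions named singly, no direction reversed under the alternatives tried, which did not include a log scale of the levels. Refits with the compared groups alone, or with trend and robust moderation, keep the difference of group means and could not reverse a direction. Regions compared between F0 sperm and F1 brain, or between F0 and F1 sperm, had only these refits, so their direction was not put to a test. Of the values of all regions named singly, 808 kept their side of the threshold and 3 passed only without a library (Nr3c2 region 77185739, above). Without 1 library in turn, the count of regions called in smoked Nrf2-/- against control WT sperm ranged from 0 to 1. With at least 6 libraries of every group only 5 regions and 78 cytosines could be scored in both F1 tissues, and 4 regions passed in each comparison by limma (67.5 and 64.4% of all regions) and by size (63.4 and 60.4%), with 57 and 51 cytosines (59.6 and 55.3% of all). Windows limited to 2 kb upstream to 500 bp past the start gave 1 of 3 in each (35 and 39.1% of all such windows). DMR counts by size moved most. In F0 sperm, in the order of the report, a minimum of 10 points gave 0 for smoked WT, 0 for recovery 2, 1 for recovery 3, 0 for control Nrf2-/- and 1 for smoked Nrf2-/- against control WT. Joining up to 300 bp gave 6, 4 and 8 for smoked WT, recovery 1 and recovery 2, and 4 in each of the 3 Nrf2-/- comparisons. At least 6 libraries gave 0 for smoked WT, recovery 1 and control Nrf2-/- and 2 for recovery 3. In F1 sperm, 10 points gave 0 and 6 libraries gave 1. In F1 brain, 10 points gave 1, 1, 5 and 3, joining to 300 bp gave 5 and 4 for the first pair of comparisons, and 6 libraries gave 1, 0, 5 and 6. Depth is unknown, so differences of a few points at levels near 0 may lie within counting error.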

Other observations

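A single cytosine of Nr3c1 at position 39477251 of chromosome 18, outside any scored region and chosen after its values were seen, was higher than in control WT F0 sperm by 14.1 points in smoked WT, 24.9 in recovery 1, 20.2 in recovery 2, 19.7 in recovery 3, 22.3 in control Nrf2-/- and 21.3 in smoked Nrf2-/- sperm. These comparisons share the control group, and none passed adjustment over all cytosines (limma adjusted p between 0.068 and 0.945).

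Over the 4 WT groups of F1 sperm and brain, the gene windows whose levels were nearest to those of 7 members, by the root mean square difference of group means, were Rps13 and Gm44777 for Bdnf (0.43 points each), Rassf5 and Ash1l for Pomc (0.269 and 0.321), D630002J18Rik and Gm45442 for Crh (0.582 and 0.812), Frrs1 and 1500015L24Rik for Crhr2 (0.674 and 0.702), Lipi and Iqcd for Nr3c2 (0.546 and 1.03), Gdf11 and Prkce for Ntrk2 (0.657 and 0.748) and Zfp975 and Sdk1 for Fkbp5 (0.469 and 0.667).

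Of the 10 genes, 8 had 14 promoters in the RefSeq table of 32851, from 250 bases before to 50 after a start. On both strands, none of the 14 held the cAMP response element TGACGTCA (1.79% of all promoters), the glucocorticoid response element (AGAACA, 3 bases of any kind, TGTTCT; 0.00913%) or the antioxidant response element core TGACNNNGC (12.4%). The wider gene windows held 6 matches to the cAMP response element, none with a methylation value at its CpG. The absence of a match says only that these letters are not in these promoter windows. The first 2 elements are so rare over all promoters that 14 would seldom hold one.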
